A study of Mus musculus with 16 samples.

Results

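The 8 genes described here encode transcription factors that carry clock time outward from the core oscillator. They were followed in the mouse uterus after a single injection of the synthetic glucocorticoid dexamethasone. They are the nuclear receptor genes Nr1d1 and Nr1d2 (REV-ERB alpha and beta), the basic leucine zipper repressor Nfil3, the PAR basic leucine zipper activators Dbp, Tef and Hlf, and the basic helix-loop-helix repressors Bhlhe40 and Bhlhe41 (DEC proteins). They were chosen by name, with earlier results of these data known, and no measured value enters the rule: a probe belongs here when its RefSeq accession maps to one of these symbols or an alias. They are 8 of 16816 genes with a symbol and a usable probe, and they have 14 of the 41174 distinct probes on the array. Of the 14, 13 were kept among 33387 probes in all, which had to stand well above background on 4 or more arrays. Each of these 13 was above background on 16 of 16 arrays and saturated on 0.

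Whole uterus RNA was measured on 16 one-colour Agilent arrays in 4 groups of 4. Newborn mice had been given genistein, a soy isoflavone that acts on estrogen receptors, at 50 mg/kg on postnatal days 1 to 5, or its carrier alone; the labels name that carrier saline and the series text names corn oil (20 µl), and these mice are called controls here. All mice, controls included, had lost both adrenals and ovaries at 6 weeks of age, so that glands which make corticosterone and estrogen were gone from every group. At 8 weeks they were injected intraperitoneally with dexamethasone at 1 mg/kg or with 100 µl of saline vehicle, and the uterus was taken 4 h later. Groups are named by the neonatal and then the adult treatment, as in control vehicle or genistein dexamethasone. The labels give neither strain nor the clock time of injection or collection, and do not say which animal an array came from, so the tests reflect spread between arrays, which may be technical. The series title asks whether early genistein alters glucocorticoid signalling in the adult uterus.

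In the cellular clock, the CLOCK and BMAL1 activators bind E-boxes and switch on their own repressors, the period and cryptochrome genes, together with several of the genes described here, among them Nr1d1 and Dbp. REV-ERB proteins repress through ROR elements, where they compete with ROR activators, and Nfil3 is among their targets. DBP, TEF and HLF activate through D-boxes, NFIL3 represses at the same D-boxes, and DEC proteins repress at E-boxes. Glucocorticoids reset clocks in peripheral tissues, with Per1 as a well-known direct target of the glucocorticoid receptor, and uterine cells keep their own clock.

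Levels below are log2 signals relative to the 75th percentile of their array, so 0 is that percentile, and changes are differences of group means on that log2 scale from limma, with standard errors (SE) and Benjamini-Hochberg adjusted p-values over all 33387 probes. An adjusted p below 0.05 is called. The 75th percentile of spot signal ran from 948 to 2719, with the control dexamethasone arrays at 1987 to 2719, and 68.9 to 81.3% of spots were above background. Control dexamethasone arrays lay apart from the rest on the first principal component (29.8% of variance), where control vehicle array 1 also lay apart from its group, and genistein vehicle arrays 3 and 4 lay apart from arrays 1 and 2 on the second (17.8%). The treatment check held in both arms: Fkbp5, Tsc22d3, Sgk1 and Per1, all glucocorticoid-induced, rose by 4.44, 2.42, 2.38 and 1.47 in controls and by 4.56, 2.40, 1.51 and 2.47 after genistein. Markers of the tissue were present, since the epithelial, stromal and smooth muscle lists were above background on every array. Markers of several cell types moved with treatment. Beside the counts in controls that follow, 10.7% of all genes were called higher and 15.4% lower there. In controls dexamethasone raised 8 of 12 adipocyte markers, whose summed log2 level was 3.71 to 5.25 on control vehicle, 5.42 to 8.16 on control dexamethasone, 5.01 to 6.56 on genistein vehicle and 4.71 to 6.67 on genistein dexamethasone arrays. It lowered 3 of 8 smooth muscle markers, whose summed level was 7.92 to 8.50, 6.72 to 7.75, 7.33 to 8.07 and 6.77 to 8.26 in the same order, and all markers of both lists were above background on all 16 arrays except Lep, which was on 12. In controls 3 of 7 endothelial markers also fell, their summed level being 4.60 to 4.82 on control vehicle, 4.18 to 4.54 on control dexamethasone, 4.09 to 4.92 on genistein vehicle and 4.52 to 4.85 on genistein dexamethasone arrays. Between the arms under dexamethasone, 5 of 10 lymphocyte and NK cell, 4 of 8 ovary and oviduct and 2 of 7 endothelial markers were higher after genistein. In that comparison 17.3% of all genes were called higher. The lymphocyte and NK cell markers summed to 0.59 to 1.14 on control dexamethasone and 1.16 to 1.58 on genistein dexamethasone arrays, and the ovary and oviduct markers to -0.05 to 0.59 and 0.38 to 1.07. On control vehicle and genistein vehicle arrays the first list summed to 1.57 to 1.81 and 1.52 to 1.90, the second to 0.45 to 0.95 and -0.48 to 0.80. Several of these markers were dim: Cyp19a1 was above background on 4 of 16 arrays, Cd79a on 10, Zp3 on 11, Fshr on 13 and Amh on 14. The part of any of these in the changes below was not tested, and in bulk tissue fewer cells of a type and less RNA per cell cannot be told apart.

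Dexamethasone in neonatal controls raised Nfil3, by 6.96-fold on its brightest probe, and lowered Nr1d1, Dbp and Bhlhe41, while Nr1d2, Tef, Hlf and Bhlhe40 did not pass the test. Of the 13 kept probes, 2 rose, 4 fell and 7 were not called, where 23.8% of all probes were called (8.99% higher and 14.8% lower). The 2 groups did not overlap for 7 of the 13 probes, against 29% of all probes. The same 6 calls were made without control vehicle array 1, and without control dexamethasone arrays 2 and 3. After neonatal genistein the same injection raised both Nfil3 probes and changed no other member by the test, where 4.98% of all probes were called (2.46% higher and 2.52% lower). Values for 4 of 13 probes did not overlap between those groups, against 12.3% of all probes, and 3 of 13 against 12.2% with outlier spots kept, since Hlf then overlapped.

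Promoters of the 4 genes that were called are shown so that the clock elements in them can be seen. Each is the 250 bases before a transcription start in RefSeq (GRCm38.p6), read along the gene, with a match to a searched motif in capitals. The Nfil3 promoter lies at chr13:52981040-52981289 on the minus strand, within the gene at chr13:52967209-52982878. The Nr1d1 promoter is chr11:98775378-98775627 (minus strand, gene at chr11:98767932-98775377). The Dbp promoter is chr7:45704997-45705246 (plus strand, gene at chr7:45705100-45710203). The Bhlhe41 promoter is chr6:145865421-145865670 (minus strand, gene at chr6:145858243-145865420).
Nfil3: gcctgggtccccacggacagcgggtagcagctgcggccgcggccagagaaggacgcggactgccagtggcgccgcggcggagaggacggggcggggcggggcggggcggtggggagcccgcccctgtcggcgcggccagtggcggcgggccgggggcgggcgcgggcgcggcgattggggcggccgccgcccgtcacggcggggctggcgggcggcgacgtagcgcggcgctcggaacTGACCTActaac
Nr1d1: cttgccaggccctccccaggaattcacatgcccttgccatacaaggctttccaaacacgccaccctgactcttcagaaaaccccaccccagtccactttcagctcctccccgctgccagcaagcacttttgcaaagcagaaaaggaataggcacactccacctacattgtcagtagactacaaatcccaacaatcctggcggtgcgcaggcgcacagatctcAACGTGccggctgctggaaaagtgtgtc
Dbp: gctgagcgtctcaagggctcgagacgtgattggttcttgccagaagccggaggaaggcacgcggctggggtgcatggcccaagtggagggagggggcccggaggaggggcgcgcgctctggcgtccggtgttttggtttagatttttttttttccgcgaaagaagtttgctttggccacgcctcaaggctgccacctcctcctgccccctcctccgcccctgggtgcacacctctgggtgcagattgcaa
Bhlhe41: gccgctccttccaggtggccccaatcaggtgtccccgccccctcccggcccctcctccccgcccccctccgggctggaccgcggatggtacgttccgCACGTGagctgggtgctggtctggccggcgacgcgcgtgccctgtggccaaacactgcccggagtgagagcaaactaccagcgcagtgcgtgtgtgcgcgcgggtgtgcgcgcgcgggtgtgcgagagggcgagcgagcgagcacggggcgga
The capitals in Nfil3 are the reverse complement of TAGGTCA, the short form of the ROR element that REV-ERB proteins bind, at position -12 from the start, a heptamer found in 2.23% of 32851 promoters of the same length. The capitals in Nr1d1 are the reverse complement of CACGTT, a variant E-box (E-box prime), at position -28, found in 3.85% of promoters. Bhlhe41 holds the palindromic E-box CACGTG at position -153, which 6.02% of promoters hold.

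Both Tef promoters in the table also hold CACGTG, at positions -127 and -138 from their starts, and the second holds AGAACA, one arm of the glucocorticoid element, at position -209, which 16.1% of promoters hold. Dbp, Hlf and Nr1d2 held no match, and 7 of 8 genes had a promoter in the table, Bhlhe40 being the other one. The D-box TTANGTAA (2.06% of promoters), which covers its forms TTATGTAA (0.819%) and TTACGTAA (0.113%), matched none of the 8 promoters searched. Nor did the full ROR element (0.0426% of promoters), its form with 1 free base (0.177%), which holds the short form at its end, NNAAGGTCA (4.05%) or the full glucocorticoid element (0.387%). All were searched on both strands, and a match is letters in this window, not a bound site.

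**Figure D1:**
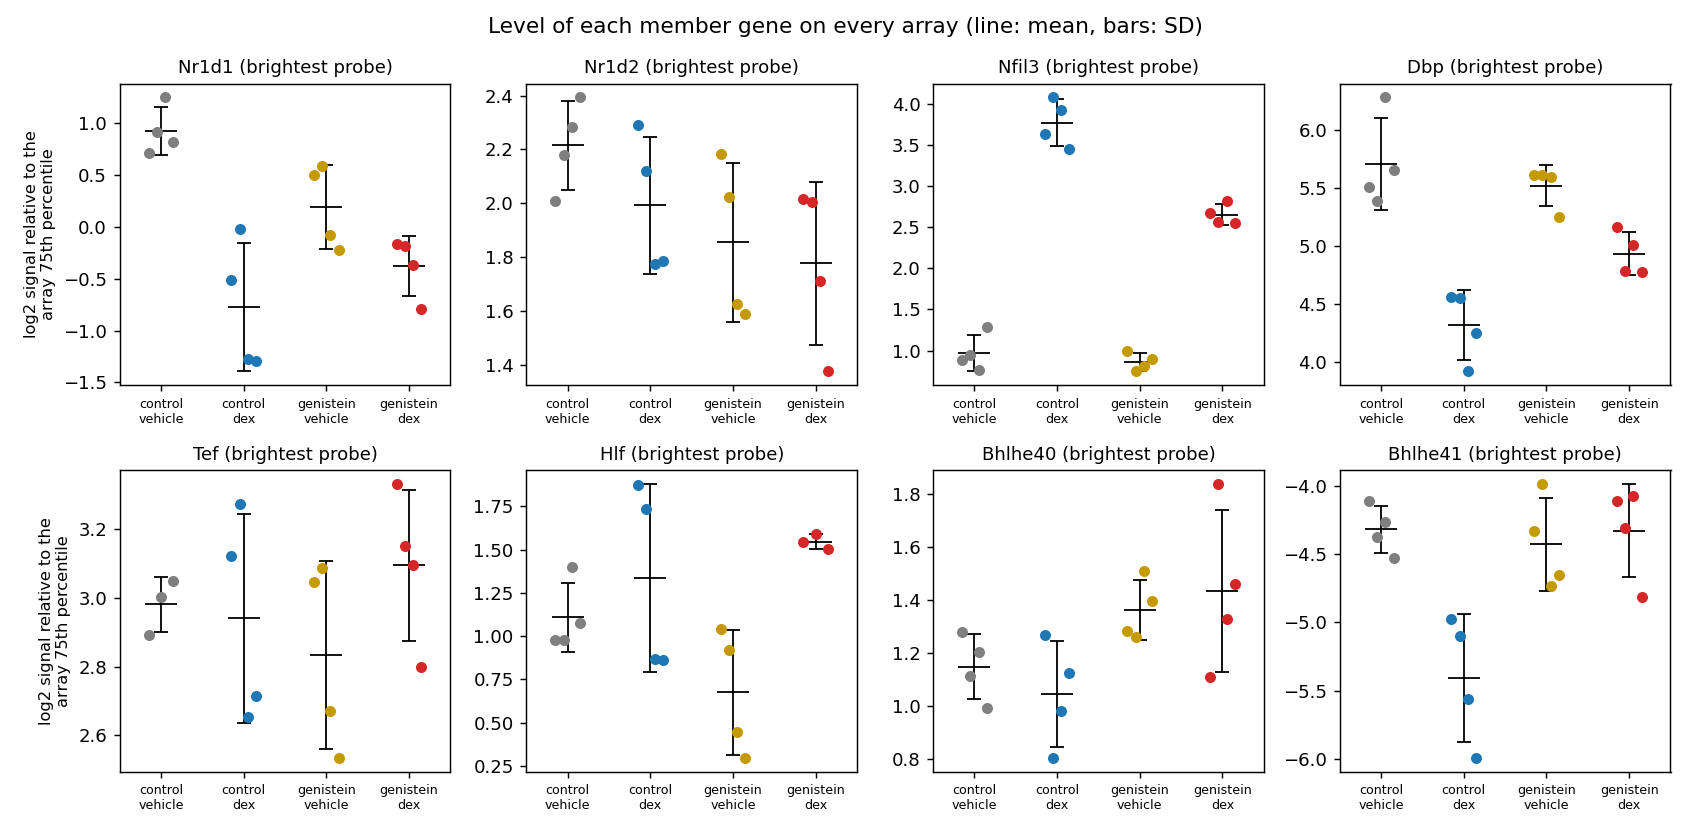
Level of each gene by its brightest probe on all 16 arrays, as log2 signal relative to the array's 75th percentile, with 1 point per array, a line at the group mean and bars of 1 SD (each panel has its own axis). The Nfil3 panel shows both dexamethasone groups above every vehicle array, and the Dbp panel shows both of them below every vehicle array.

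Nfil3, the repressor that opposes the PAR bZIP activators at D-boxes, moved most. Its brightest probe (A_52_P500027) read 0.88, 0.95, 0.76 and 1.28 on the control vehicle arrays and 3.63, 4.08, 3.92 and 3.45 on the control dexamethasone arrays. On the genistein vehicle arrays it read 0.99, 0.75, 0.82 and 0.89, and on the genistein dexamethasone arrays 2.67, 2.56, 2.82 and 2.55. Each dexamethasone array stood above every vehicle array, and every genistein dexamethasone array stood below every control dexamethasone array, while the 2 vehicle groups overlapped.

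In controls dexamethasone raised this probe by 2.80 (SE 0.15, 6.96-fold, adjusted p = 2.04e-07 by limma), from 0.97 ± 0.22 (SD, n = 4) to 3.77 ± 0.29 (SD, n = 4). Only 0.353% of all probes moved as far or farther in that comparison. After genistein it rose by 1.79 (SE 0.15, 3.46-fold, adjusted p = 1.45e-05), from 0.86 ± 0.10 to 2.65 ± 0.13 (SD, n = 4). The second probe (A_51_P111492) rose by 2.05 (SE 0.23, 4.13-fold) in controls and by 1.98 (SE 0.23, 3.93-fold) after genistein. Within the 3 slides that held both groups, probe 1 rose by 2.64 to 2.88 in controls and by 1.67 to 1.80 after genistein.

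The 2 Nfil3 probes differed in how the arms compared under dexamethasone. Probe 1 differed between genistein dexamethasone and control dexamethasone uteri by -1.12 on the log2 scale (SE 0.15, 2.17-fold lower, adjusted p = 0.00292), a call kept in 32 of 32 alternative settings, and by -1.07 and -1.37 within the 2 slides that held both groups. Probe 2 read 1.80, 2.15, 1.50 and 1.39 on the control dexamethasone arrays and 1.22, 1.55, 1.86 and 1.55 on the genistein dexamethasone arrays. These overlap, and the difference was -0.16 (SE 0.23, 95% interval -0.64 to 0.32, adjusted p = 0.619). The difference between the 2 dexamethasone effects was -1.01 for probe 1 (SE 0.22, unadjusted p = 0.000374, adjusted p = 0.175) and -0.07 for probe 2 (95% interval -0.75 to 0.61), and neither was called. Over all arrays the probes' values correlated at r = 0.927, and at 0.220 once group means were removed. Under vehicle the genistein and control groups differed by -0.11 for probe 1 (95% interval -0.44 to 0.22).

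Dbp, a PAR bZIP activator that binds D-boxes, went the other way. It read 5.51, 5.39, 6.29 and 5.66 on the control vehicle arrays and 4.56, 4.55, 3.92 and 4.25 on the control dexamethasone arrays. Genistein vehicle arrays read 5.62, 5.61, 5.60 and 5.26, and genistein dexamethasone arrays read 5.16, 4.79, 5.01 and 4.78. In each arm the dexamethasone arrays all lay below the vehicle arrays, and the control dexamethasone arrays lay below all genistein dexamethasone arrays.

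Dbp fell by 1.39 (SE 0.20, 2.62-fold, adjusted p = 0.000663) in controls, from 5.71 ± 0.40 to 4.32 ± 0.30 (SD, n = 4), with differences of -0.83 to -1.73 within 3 slides. After genistein the means were 5.52 ± 0.18 and 4.94 ± 0.19 (SD, n = 4), a change of -0.59 (SE 0.20, 95% interval -1.02 to -0.16, adjusted p = 0.120) that was not called. Dbp was 0.61 higher in genistein dexamethasone than in control dexamethasone uteri (SE 0.20, adjusted p = 0.0423), but 16 of 32 alternative settings lost that call, and within 2 slides it was 0.23 and 0.86 higher. The difference of the 2 dexamethasone effects was 0.80 (95% interval 0.19 to 1.41, adjusted p = 0.226). Ordered by mean, Dbp ran from control dexamethasone through genistein dexamethasone and genistein vehicle to control vehicle, and the last pair differed by only -0.19 (95% interval -0.62 to 0.24).

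Tef and Hlf are the other PAR bZIP activators. Tef probe 1 read 2.89, 3.00 and 3.05 on the 3 control vehicle arrays with a value and 3.12, 3.27, 2.65 and 2.71 on the control dexamethasone arrays. On the genistein arrays it read 3.05, 3.09, 2.67 and 2.53 under vehicle and 3.33, 3.15, 3.10 and 2.80 under dexamethasone. All 4 groups overlapped with each other, and no Tef probe was called in any comparison.

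For Tef probe 1 the dexamethasone change was -0.04 (95% interval -0.46 to 0.38) in controls and 0.26 (95% interval -0.13 to 0.65) after genistein. Tef probes 2 and 3 were dim, with mean levels over all arrays of -3.30 and -3.88, and correlated with probe 1 at r = 0.456 and 0.129. Tef probe 2 did not overlap between the control groups, at -3.18 ± 0.32 under vehicle and -3.70 ± 0.24 under dexamethasone (SD, n = 4), yet the change of -0.52 was not called (adjusted p = 0.200). Its genistein dexamethasone mean of -2.88 ± 0.73 was spread by array 2 at -1.84, the highest of the 16 arrays.

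Hlf read 0.98, 0.98, 1.40 and 1.08 on the control vehicle arrays and 1.87, 1.73, 0.87 and 0.86 on the control dexamethasone arrays. It read 1.04, 0.92, 0.45 and 0.30 on the genistein vehicle arrays and 1.54, 1.59 and 1.50 on the 3 genistein dexamethasone arrays with a value. The control dexamethasone arrays fell on both sides of their vehicle group, and after genistein the groups did not overlap on the arrays with a value. The spot left out on genistein dexamethasone array 4, flagged as an outlier, would read 1.02, inside the genistein vehicle range.

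Hlf differed by 0.87 between the genistein groups (SE 0.27, 95% interval 0.30 to 1.44, adjusted p = 0.0840; 0.74 with that spot kept, adjusted p = 0.120) and by 0.23 between the control groups (95% interval -0.30 to 0.76), and neither was called. So of the 3 D-box activators, Dbp alone passed the test in controls; whether its change differed from theirs was not tested.

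**Figure D2:**
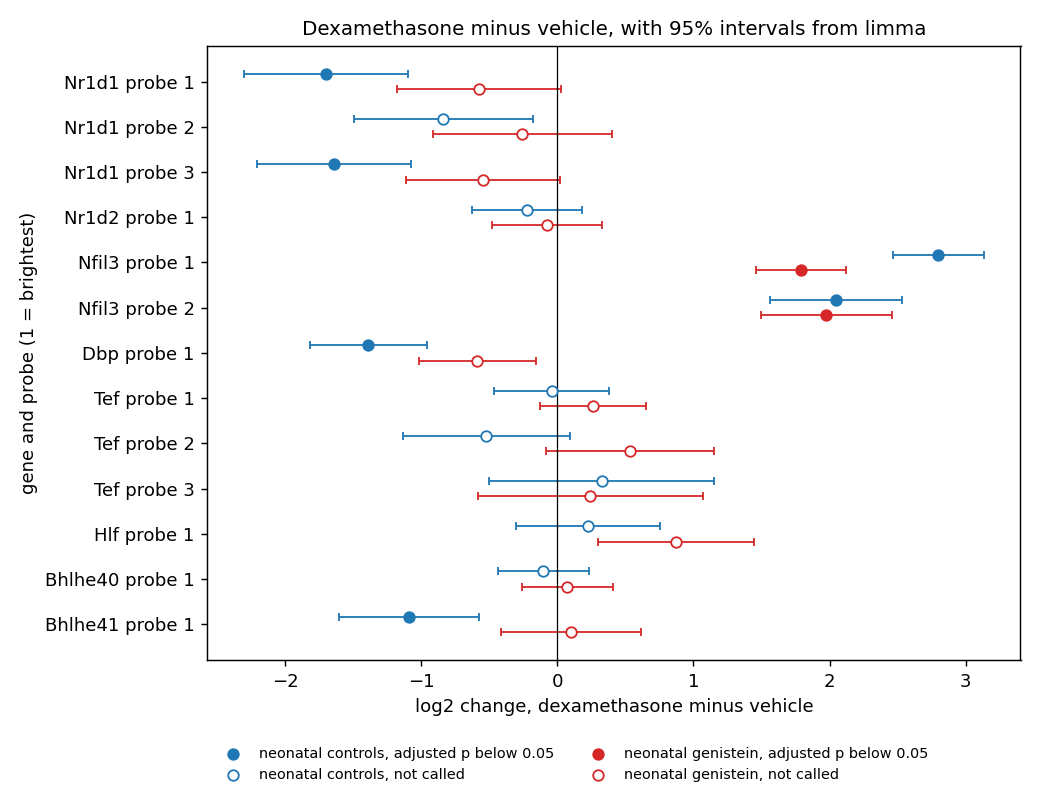
Log2 change under dexamethasone for each of the 13 kept probes, with 95% intervals from limma, in neonatal controls (blue) and after neonatal genistein (red); filled points have an adjusted p below 0.05. Both Nfil3 probes are filled in both arms, at 2.80 and 2.05 in controls and 1.79 and 1.98 after genistein, while the Nr1d1, Dbp and Bhlhe41 points lie lower in controls than after genistein.

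Nr1d1, the REV-ERB alpha repressor that closes the second loop of the clock, fell in controls. Its brightest probe (A_51_P223776) read 0.71, 0.92, 1.25 and 0.82 on the control vehicle arrays and -0.51, -0.02, -1.27 and -1.29 on the control dexamethasone arrays. It read 0.50, 0.59, -0.08 and -0.22 on the genistein vehicle arrays and -0.17, -0.18, -0.37 and -0.79 on the genistein dexamethasone arrays. The control groups did not overlap, the genistein groups did, and the genistein vehicle arrays all lay below the control vehicle arrays.

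In controls Nr1d1 probe 1 fell by 1.70 (SE 0.28, 3.24-fold, adjusted p = 0.00142), from 0.92 ± 0.23 to -0.77 ± 0.62 (SD, n = 4), with differences of -1.37 to -2.09 within 3 slides. Probe 3 (A_52_P130952) fell by 1.64 (SE 0.26, adjusted p = 0.00123), and probe 2 (A_52_P130961) changed by -0.84 (95% interval -1.49 to -0.18, adjusted p = 0.0616). After genistein the changes were -0.57, -0.26 and -0.54 for probes 1 to 3, and none was called (adjusted p = 0.308, 0.749 and 0.302). The difference between the dexamethasone effects was 1.12 for probe 1 (95% interval 0.27 to 1.98, adjusted p = 0.225), 0.58 for probe 2 and 1.10 for probe 3 (adjusted p = 0.215), and none was called.

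Under vehicle, Nr1d1 probe 1 was the one member probe of 13 whose genistein and control arrays did not overlap, against 4.85% of all probes. The difference was -0.73 (SE 0.28, 95% interval -1.33 to -0.13, adjusted p = 0.340) and was not called, and probe 2 was at 0.51 and probe 3 at -0.21. Under dexamethasone, probes 2 and 3 were higher after genistein by 1.09 (SE 0.31, adjusted p = 0.0238) and 0.89 (SE 0.26, adjusted p = 0.0294), while probe 1, the brightest, was at 0.40 (95% interval -0.21 to 1.00, adjusted p = 0.313). The call for probe 2 was lost in 5 of 31 alternative settings and that for probe 3 in 8 of 31. Probes 2 and 3 were dim, with mean levels over all arrays of -2.87 and -3.23, against -0.007 for probe 1. Probes 1 and 3 correlated at r = 0.879 over all arrays, probes 2 and 3 at 0.643, and probes 1 and 2 at 0.346. Once group means were removed these became 0.736, 0.299 and 0.002.

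**Figure D3:**
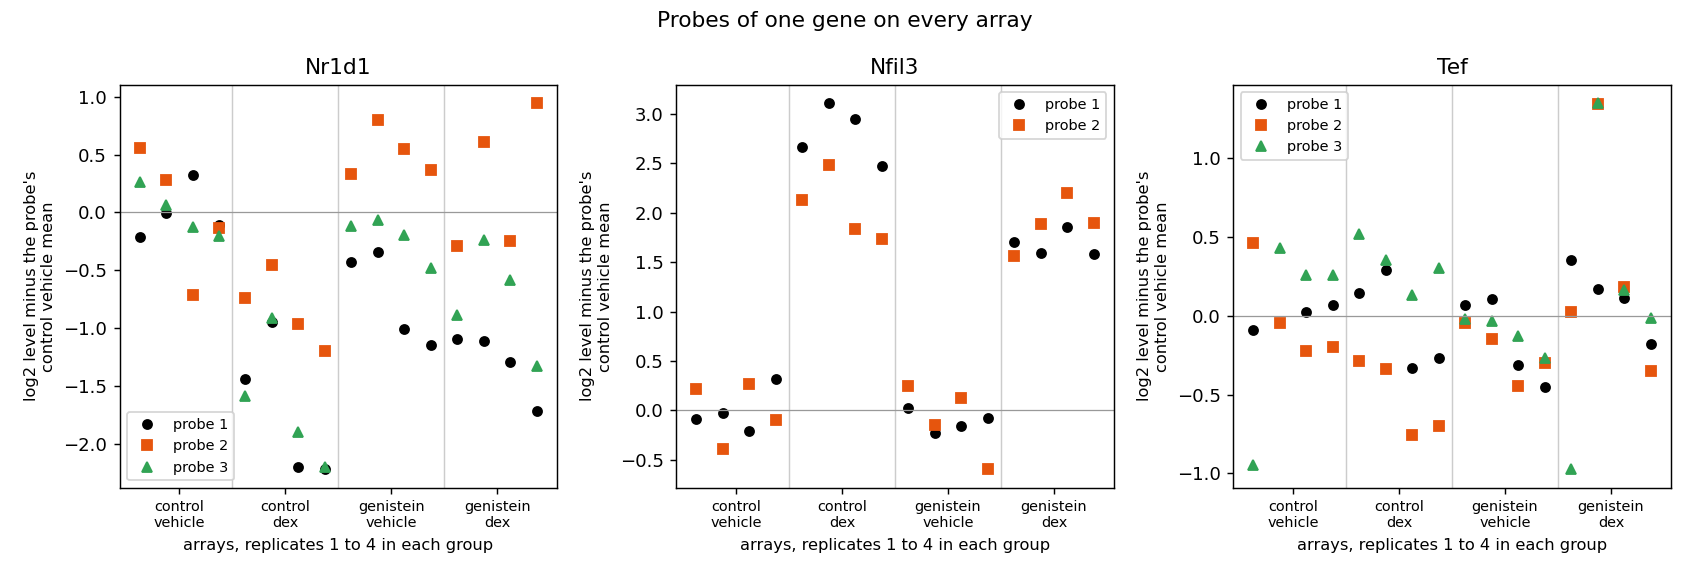
Every kept probe of Nr1d1, Nfil3 and Tef on each array, in group order and with replicates 1 to 4 from left to right, as log2 level minus that probe's control vehicle mean. Nr1d1 probes 1 and 3 fall together on the control dexamethasone arrays, and Nfil3 probe 1 stands above probe 2 on all 4 of those arrays and below it on 3 of 4 genistein dexamethasone arrays. Tef probe 1 scatters around 0. Tef probe 2 lies below 0 on every control dexamethasone and genistein vehicle array, and Tef probe 3 lies above 0 on the former and below 0 on the latter. For Tef probe 3 the control vehicle mean is lowered by array 1 at a level of -4.91, against -3.71 to -3.53 on the others. Its control dexamethasone levels of -3.83 to -3.44 overlap that range.

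Nr1d2, the REV-ERB beta paralogue that overlaps in function with Nr1d1, was not called in any comparison. It read 2.01, 2.18, 2.28 and 2.39 on the control vehicle arrays, 2.29, 2.12, 1.78 and 1.79 on the control dexamethasone arrays, 2.18, 2.02, 1.63 and 1.59 on the genistein vehicle arrays and 2.02, 2.01, 1.71 and 1.38 on the genistein dexamethasone arrays. All 4 groups overlapped. The dexamethasone change was -0.22 (95% interval -0.63 to 0.18) in controls and -0.08 (95% interval -0.48 to 0.33) after genistein, intervals that leave out a change as large as the -1.70 of Nr1d1 probe 1 in controls.

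Bhlhe41, the DEC2 repressor, fell in controls at a low signal. Its probe (A_51_P451176) read -4.11, -4.38, -4.26 and -4.53 on the control vehicle arrays and -4.97, -5.10, -5.56 and -5.99 on the control dexamethasone arrays. The genistein vehicle arrays read -4.33, -3.99, -4.74 and -4.66 and the genistein dexamethasone arrays -4.11, -4.31, -4.08 and -4.82. The control dexamethasone arrays lay below all 12 others, and the remaining groups overlapped.

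Bhlhe41 fell by 1.09 in controls (SE 0.24, 2.12-fold, adjusted p = 0.00655), from -4.32 ± 0.17 to -5.41 ± 0.47 (SD, n = 4), with differences of -0.60 to -1.43 within 3 slides. After genistein its change was 0.10 (95% interval -0.41 to 0.61, adjusted p = 0.896). The difference of the effects was 1.19 (95% interval 0.46 to 1.91, unadjusted p = 0.00341, adjusted p = 0.185) and was not called. Under dexamethasone it was 1.08 higher after genistein (SE 0.24, 2.11-fold, adjusted p = 0.00946), a call lost in 1 of 32 alternative settings, with slide as a fixed block (adjusted p = 0.0600), and 0.67 and 0.75 higher within 2 slides. A second Bhlhe41 probe was not well above background on any array.

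Bhlhe40, the DEC1 repressor, was called in no comparison. It read 1.28, 1.11, 1.20 and 0.99 on the control vehicle arrays, 1.27, 0.80, 0.98 and 1.12 on the control dexamethasone arrays, 1.28, 1.26, 1.51 and 1.40 on the genistein vehicle arrays and 1.11, 1.84, 1.33 and 1.46 on the genistein dexamethasone arrays. All groups overlapped. Its dexamethasone change was -0.10 in controls (95% interval -0.44 to 0.23), which turned to 0.13 under median scaling, and 0.07 after genistein (95% interval -0.26 to 0.41). Under dexamethasone its difference, genistein minus control, was 0.39 (95% interval 0.06 to 0.72, adjusted p = 0.0826).

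Comparing the arms directly, neonatal genistein under vehicle changed none of the 13 probes by limma's test, where 0.003% of all probes were called. In that comparison 1 of 13 had an unadjusted p below 0.05, against 4600 of all 33387 probes. Under dexamethasone 5 of 13 were called between the arms, 4 higher and 1 lower after genistein, where 22.7% of all probes were called (15.8% higher and 6.92% lower). Those 5 probes were Nfil3 probe 1, Nr1d1 probes 2 and 3, Dbp and Bhlhe41, and the groups did not overlap for 4 of the 13, against 28.3% of all probes. Without control dexamethasone array 3 or array 4, or without genistein dexamethasone array 2, only 2 were called. With slide as a fixed block, only Nfil3 probe 1 and Nr1d1 probe 2 of the 5 kept their calls. For the difference of the 2 dexamethasone effects, 6 of 13 had an unadjusted p below 0.05, against 5308 of all 33387 probes. That difference called 0 of 13, and 0% of all probes. An effect called in controls and not after genistein is therefore not shown to differ between the arms. These comparisons share groups: the control dexamethasone arrays enter both the control effect and the comparison of arms under dexamethasone.

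**Figure D4:**
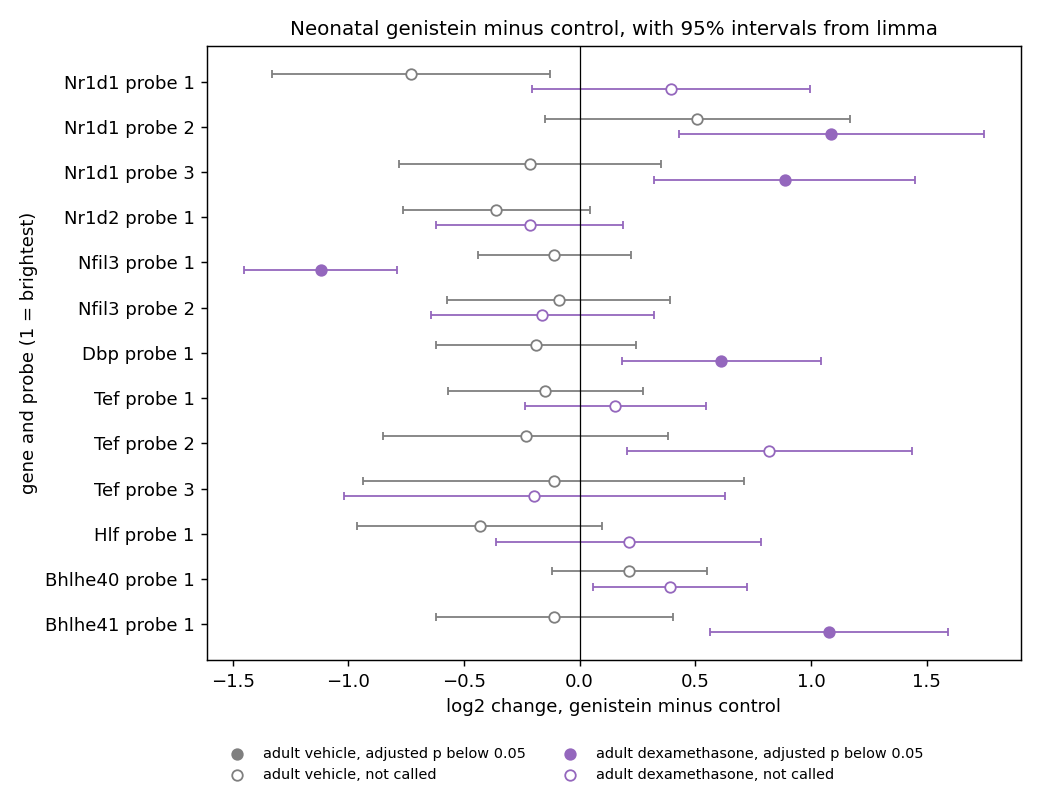
Log2 difference between neonatal genistein and control uteri for each of the 13 kept probes, with 95% intervals from limma, under adult vehicle (grey) and adult dexamethasone (purple); filled points have an adjusted p below 0.05. No grey point is filled, and the 5 filled purple points are Nfil3 probe 1 at -1.12, Nr1d1 probes 2 and 3 at 1.09 and 0.89, Dbp at 0.61 and Bhlhe41 at 1.08.

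Within groups, several members varied together from array to array, and so did many other genes. Deviations from the group means were correlated for all 28 pairs of genes by their brightest probes, with 100000 permutations within groups, and 13 pairs had an adjusted p below 0.05, the weakest at an absolute r of 0.585. Of the 28 pairs 14 reached that size, as did 9.95% of all pairs among the 16295 genes with a value on every array, and genes outside the clock lists reached a within-group r of 0.942 with a member (Rusc2 with Tef). The strongest were Nr1d1 with Tef (r = 0.935, rho = 0.889, permutation p = 0.00042 and 0.00093, adjusted p = 0.0118 and 0.0214, n = 15 arrays) and Nr1d1 with Hlf (r = 0.923, rho = 0.925, permutation p = 0.00586 and 0.00435, adjusted p = 0.0233 and 0.0244, n = 15). Without the 2 arrays farthest from the median of Nr1d1 these became 0.925 and 0.930, and with slide means removed as well 0.972 and 0.925. Nr1d1 and Nr1d2 went together at r = 0.801 (rho = 0.726, permutation p = 0.00311 and 0.00813, adjusted p = 0.0225 and 0.0285, n = 16), and at 0.872 without the 2 farthest arrays.

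Control dexamethasone arrays 1 and 2 and genistein vehicle arrays 1 and 2 read higher than arrays 3 and 4 of their groups for Nr1d1, Nr1d2, Tef and Hlf alike. Dbp joined them less closely, at r = 0.676 with Nr1d1 (rho = 0.768, permutation p = 0.00665 and 0.00267, adjusted p = 0.0233 and 0.0214, n = 16; 0.704 without the 2 farthest arrays). Nfil3 by its brightest probe did not: its r with the other genes except Bhlhe40 lay between -0.114 and 0.282. With Bhlhe40 it was -0.585 (rho = -0.659, permutation p = 0.0228 and 0.0177, adjusted p = 0.0491 and 0.0413, n = 16), which fell to -0.444 without the 2 farthest arrays and -0.243 under median scaling. Nfil3 probe 2, at r = 0.220 with probe 1 within groups, was not correlated with the other genes. It read 1.80, 2.15, 1.50 and 1.39 on control dexamethasone arrays 1 to 4, so arrays 1 and 2 were higher there. On genistein vehicle arrays 1 to 4 it read -0.09, -0.48, -0.21 and -0.93, without that split. For these relations a marker list was taken by the mean log2 level of its markers, not by their summed level. The smooth muscle mean also followed several members within groups, at r = 0.842 with Nr1d1 (rho = 0.850, permutation p = 0.00298, adjusted p = 0.0608, n = 16) and 0.875 with Bhlhe41 (rho = 0.882, permutation p = 0.00101, adjusted p = 0.0608, n = 16). Its r was 0.878 with Tef, 0.858 with Hlf, 0.842 with Nr1d2 and 0.569 with Dbp. With Nfil3 it was 0.141 and with Bhlhe40 -0.250. The epithelial mean went the other way, at r = -0.790 with Tef, -0.762 with Bhlhe41 and -0.739 with Nr1d2, and so did the macrophage mean, at -0.772 with Nr1d2 and -0.734 with Tef. None of the 72 relations of 9 marker lists with the 8 genes had an adjusted p below 0.05.

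**Figure D5:**
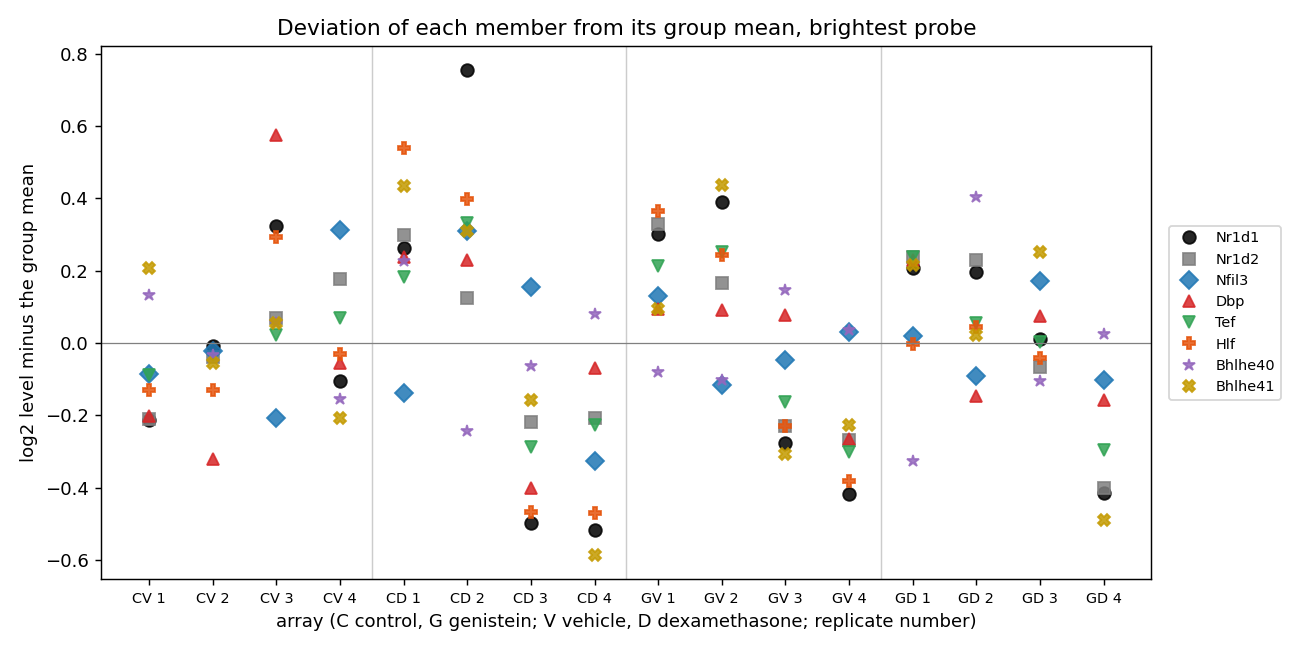
Deviation of each gene's brightest probe from its group mean (log2) on each of the 16 arrays, labelled by neonatal group (C control, G genistein), adult treatment (V vehicle, D dexamethasone) and replicate number. On CD 1, CD 2, GV 1 and GV 2 the Nr1d1, Nr1d2, Tef, Hlf and Bhlhe41 markers lie above 0, and on CD 3, CD 4, GV 3 and GV 4 they lie below 0, while Nfil3 and Bhlhe40 do not keep to that side.

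The genes most like each member over the arrays, by Pearson r of levels, are given as a description, since group differences and array quality both enter it. Nfil3 was most like Omd, an extracellular matrix proteoglycan gene (r = 0.984 over 16 arrays, 0.626 within groups), then Tm6sf1 (0.979) and Ms4a6b (0.976). Dbp was most like Vamp5 (0.957, 0.752 within groups), Gstt2 (0.950) and Hexdc (0.949). Nr1d1 was most like Mustn1 (0.945, 0.892 within groups), a gene of muscle and skeletal tissue, Dchs1 (0.941) and Fcgrt (0.940). Bhlhe41 was most like Eno3, the muscle enolase gene (0.948), Prpf40b (0.940) and the relaxin receptor gene Rxfp1 (0.936). The top match of Nr1d2 was A330023F24Rik (0.934), that of Tef was Rusc2 (0.928 over 15 arrays), that of Hlf was the protease inhibitor gene Timp3 (0.934 over 15 arrays) and that of Bhlhe40 was the DNA polymerase subunit gene Pola2 (0.895). After these came Nexn (0.913) and Gpc2 (0.913) for Nr1d2, Atp6v0e2 (0.924) and Peli2 (0.921) for Tef, Jcad (0.930) and Fam214a (0.929) for Hlf, and Tfdp1 (0.892) and Sec16a (0.888) for Bhlhe40.

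Among 21 other clock genes, taken by their brightest probes, dexamethasone in controls raised 5 and lowered 1, with a median change of 0.23 against -0.08 over 16816 genes, of which 10.7% were called higher and 15.4% lower. Ciart, a repressor of CLOCK and BMAL1, rose by 1.95 (SE 0.33), the cryptochrome Cry1 by 1.77 (SE 0.35) and the period gene Per1 by 1.47 (SE 0.21), while Per3 fell by 1.03 (SE 0.33). The other 2 that rose were Per2 at 0.77 and Clock at 0.55. A second, dimmer Per2 probe fell by 1.50 in controls, and a second Cry1 probe was at 0.51 and not called. Of 4 Csnk1d probes, 2 of the dimmer ones fell, by 0.67 and 0.71. A dimmer Rora probe also fell, by 0.79, and a dimmer Clock probe rose by 0.39. The fall of Per3 was lost under median scaling, among other settings, and without control vehicle array 1.

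After genistein 5 of the 21 rose and 0 fell (median 0.22 against -0.02), where 3.04% of genes were called higher and 3.47% lower. They were Per1 at 2.47 (SE 0.21), Ciart at 2.15 (SE 0.33), Per2 at 1.33 (SE 0.20), the deubiquitinase gene Usp2 at 1.18 (SE 0.24) and Clock at 0.57. The brightest Cry1 probe was at 1.29 and not called (adjusted p = 0.0708), while its second probe rose by 1.22 (adjusted p = 0.0184). By their brightest probes none of the 21 was called between the arms under vehicle, where 0.00595% of genes were called higher and 0% lower, or under dexamethasone, where 17.3% were higher and 6.67% lower after genistein, or in the difference of effects. Dimmer probes were called under dexamethasone, Per2 at 1.55 (adjusted p = 0.0392) and 2 of 4 Csnk1d probes at 0.85 and 0.73, all higher after genistein. By brightest probes, the smallest p for that difference was Per1 at 1.00 (SE 0.30, adjusted p = 0.192), which was also the smallest under vehicle, at -0.71 (adjusted p = 0.339). By their brightest probes Per1 and Per2 thus rose in both arms, as Nfil3 did. Arntl, the BMAL1 gene that REV-ERB proteins repress, was at 0.32 in controls (adjusted p = 0.261) and 0.41 after genistein (adjusted p = 0.308).

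Known REV-ERB targets went both ways: of 14 measured, dexamethasone in controls raised 4 and lowered 3 (median 0.32 against -0.08 over all genes, of which 10.7% were called higher and 15.4% lower). The chemokine Ccl2 fell by 3.47 (SE 0.39) and the chemokine receptor Cx3cr1 by 2.29 (SE 0.27), while Cry1 rose by 1.77. The NAD salvage enzyme gene Nampt rose by 1.41 (SE 0.23). After genistein 2 rose and 3 fell (median 0.14 against -0.02, with 3.04% of genes higher and 3.47% lower), led by Ccl2 at -2.79 (SE 0.39), Nampt at 1.42 (SE 0.23), Cx3cr1 at -1.16 (SE 0.27) and the matrix metalloprotease gene Mmp9 at -1.14 (SE 0.27). Between the arms under dexamethasone, where 17.3% of all genes were higher and 6.67% lower after genistein, 1 REV-ERB target was higher and 1 lower, and Cx3cr1 was higher by 0.87 (SE 0.27). Neutrophil markers fell beside Ccl2 and Cx3cr1, 4 of 6 in each arm with 1 rising in controls, and 6 of 10 lymphocyte and NK cell markers fell in controls; their part in these falls was not tested.

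Of 15 measured PAR bZIP and D-box targets, dexamethasone in controls raised 4 and lowered 1 (median 0.40, beside the same shares of all genes), among them the period genes again. Gys2, the liver glycogen synthase gene, rose by 4.04 (SE 0.74) from a level above background on 1 of 4 control vehicle arrays, and the cytochrome gene Cyp2a5 by 2.89 (SE 0.68) from 2 of 4. After genistein 2 rose, Per1 and Per2, and 0 fell (median 0.15 against -0.02, with 3.04% of all genes higher and 3.47% lower). Between the arms under dexamethasone 17.3% of all genes were called higher and 6.67% lower after genistein. Under dexamethasone Gys2 was lower after genistein, at -2.66 (SE 0.74, above background on 2 of 4 arrays there), and Cyp7a1, the rate-limiting enzyme gene of bile acid synthesis, was higher by 2.19 (SE 0.46), its control dexamethasone group being above background on 0 of 4 arrays.

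Of 7 measured DEC targets, 4 rose and 1 fell in controls (median 0.67, where 10.7% of all genes rose and 15.4% fell): Per1, the helix-loop-helix inhibitor gene Id1 by 1.26 (SE 0.33), Per2 and the retinoid receptor gene Rxra by 0.67 (SE 0.17) rose, and the lipogenic regulator Srebf1 fell by 0.45 (SE 0.14), a call lost under median scaling. After genistein Per1 and Per2 rose and 0 fell (median 0.25 against -0.02, with 3.04% of all genes higher and 3.47% lower). Between the arms under dexamethasone 17.3% of all genes were called higher and 6.67% lower after genistein. Under dexamethasone Rxra was at -0.68 (SE 0.17) and Ppargc1a, a coactivator of mitochondrial genes, at -1.08 (SE 0.34) after genistein, while a second Ppargc1a probe was at 0.32 and not called, and Srebf1 was higher by 0.55 (SE 0.14). The second Ppargc1a probe, a dimmer one, fell by 0.47 with dexamethasone in controls, where the brightest was at -0.04 and not called. In the difference of effects none of the genes in these 3 target lists was called. The lists overlap, Per1 and Per2 being in the clock, D-box and DEC lists, so their counts are not independent. Without control dexamethasone arrays 2 and 3, the REV-ERB and DEC targets called higher in controls numbered 2 and 2, against 4 and 4 with all arrays. Without those arrays none of the REV-ERB and DEC target calls between the arms under dexamethasone was made, nor the call for Gys2.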

How the data were processed

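RNA from whole mouse uterus was hybridised to 16 one-colour Agilent arrays, 4 per group (400 ng of RNA, per the labels' protocols). The deposited files hold scanner intensity for each spot on a linear scale, which the authors' Feature Extraction run (version 12.0.0.7 per the file headers, version 9.5 per the submitters' processing notes) had background-subtracted and not normalized between arrays. Spot flags, 0 or 1 per the file headers, served as filters. The deposited series value table holds the same intensity and was not used again, and 0 columns of sample values were left out. The other columns in the files were not used.

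Signals became log2 values minus each array's 75th percentile over non-control spots (45018 spots, 1639 controls). Outlier spots were set to missing, repeated spots averaged, and probes kept when flagged above background on 4 arrays or more; 773 kept probes lacked a value somewhere and were fitted on the arrays that held one. Tef probe 1 has no value on control vehicle array 2 and Hlf none on genistein dexamethasone array 4. Genes were named by joining RefSeq accessions to GRCm38.p6 annotation (28223 probes), which is also the build of the coordinates and promoters; the array's own grid uses another build, so probes have no positions here. The promoter window is the 250 bases before the start.

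Limma 3.58.1 (R 4.3.3, with package data.table at version 1.17.8) fitted 4 group means to all 16 arrays, with 5 comparisons, two-sided moderated tests and Benjamini-Hochberg adjustment over all kept probes. Every probe was fitted by itself; probe 1 of a gene is its brightest, which stands for it in lists. On simulated data with 200 of 33387 probes changed by 2 on the log2 scale the fit was tested and 122 to 161 of the changed probes were called, the lowest number being for the difference of effects. The simulation used independent noise and a single size of change in few probes, unlike these arrays, so it does not give the power of the tests here. Members and lists were chosen with earlier results of these data known. All probes of the 8 genes are named, and of each pathway list and comparison up to 4 called genes with the largest change, or up to 2 with the smallest p where none was called; members were taken out of the lists, and Tshb had no kept probe. One gene of the REV-ERB list that the rule names is counted but not reported here. Genes added after their values were seen are Arntl, further called list genes given where a count was 5 or fewer, and second or other dimmer probes. For each member the 3 most similar genes are named. Within-group correlations, their permutation tests, the list counts without single arrays, the share of all gene pairs and the setting with outlier spots kept were added after the data were seen. Alternatives changed the scaling (quantile or median), the background (normexp, offset 50, on the median spot signal, since the files hold no mean), the filter (none, or all 16 arrays), missing values (such probes dropped) and the probes (1 per gene). Others blocked on slide, fixed or random, or on replicate number, fitted a comparison on its own arrays, used a variance trend or array weights, or left arrays out. Arrays lay on 5 slides, and control vehicle array 3 was alone on its slide. Same-numbered arrays deviated together in 8 of 24 pairs (correlation above 0.1, range -0.348 to 0.368). Differently numbered pairs were not counted at that cut, so whether the numbers pair samples cannot be told from it. Replicate number entered only as an alternative block. Figures used Python 3.11.15 and matplotlib 3.10.9. Precision is limited by 4 arrays per group.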

Additional observations from a re-analysis of the deposited data

Results flagged for a closer look

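Among 54 sets of 4 arrays (a probe in a group), 2 held an array far from the other 3 by Dixon's test, where chance gives about 2.7 at 1 in 20. Dbp on genistein vehicle array 4 read 5.26, below the other arrays of that group at 5.60 to 5.62. Tef probe 3, which was dim throughout, read -4.91 on control vehicle array 1, below the others at -3.71 to -3.53. Left out, genistein vehicle array 4 gave no call for Dbp after genistein, as with all arrays, and no change of Tef probe 3 was called without control vehicle array 1.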

How the results depend on the processing

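For dexamethasone in controls, direction and call held for all 6 called probes in every alternative setting that tested them (31 or 32), and the number of called member probes ran from 4 to 7 (6 to 7 when one array was left out). After genistein both Nfil3 probes kept their calls; 2 probes were called, 1 with the brightest probe per gene and 4 with array weights, which added Nr1d1 probe 1 and Dbp (2 in every leave-one-out fit). The difference of effects and genistein under vehicle called no member probe in any setting. Genistein under dexamethasone was the least stable: 5 called probes became 3 with quantile normalization, 3 with the brightest probe per gene, 3 with slide as a fixed block (of the 5, Nfil3 probe 1 and Nr1d1 probe 2 kept their calls, Nr1d1 probe 3, Dbp and Bhlhe41 lost theirs at adjusted p = 0.0671, 0.0640 and 0.0600, and Bhlhe40 gained one at 0.0376) and 3 without control dexamethasone arrays 2 and 3, and ran from 2 to 6 when one array was left out. The cause was not tested, except that the brightest-probe setting tests fewer probes. Not called in the report but called elsewhere were Nr1d1 probe 2 in controls (5 settings), and Tef probe 2 (7 settings) and Bhlhe40 (2 settings) under dexamethasone.

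Median scaling moved the median change of all probes in controls from -0.14 to 0.09, and the share of called probes that were higher from 37.8% to 66.4% (50.6% with quantile normalization). In genistein under dexamethasone that share was 69.6%, 52.7% with median scaling and 53.5% with quantile normalization, and after genistein 49.4%, 70.2% with normexp. Under median scaling Nfil3 probe 1 rose by 3.03 and Nr1d1 probe 1, Dbp and Bhlhe41 fell by 1.47, 1.16 and 0.86 in controls. With the replicate block, 6, 2, 0, 0 and 5 member probes were called in the comparisons in the order given; Dbp lost its call under dexamethasone (adjusted p = 0.0559) and Tef probe 2 gained one (adjusted p = 0.0381).

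Calls over all probes ran from 4191 (normexp) to 9642 in controls (7955 as reported; 4474 without control vehicle array 1, 4840 without control dexamethasone arrays 2 and 3), from 460 (normexp) to 4318 (array weights) after genistein (1662), and from 2957 (without control dexamethasone arrays 2 and 3) to 13584 (array weights) in genistein under dexamethasone (7587). They stayed at 0 to 2 in the others, where 4600 (genistein under vehicle) and 5308 (difference) probes had an unadjusted p below 0.05. Of the other clock genes 4 to 8 were called higher and 0 to 2 lower in controls, 3 to 7 and 0 to 1 after genistein. Within-group correlations of Bhlhe41 turned under normexp, with Nr1d2 to -0.511 and with Tef to -0.408; the cause was not tested.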
